A study of Gallus gallus with 8 samples.

Results

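The preplacodal ectoderm of the chick head fold embryo was compared with the epiblast of the embryo before the primitive streak forms, gene by gene across the count table. The comparison used 4 of the 8 libraries of the series. One side held the anterior and the posterior preplacodal region at HH6/7 (Hamburger and Hamilton stages), and the other held the anterior and the central pre-streak epiblast at EGKXII/XIII (Eyal-Giladi and Kochav stages). All were dissected from chicken embryos; for these 4 the labels name no treatment, no genetic change, no count of embryos per dissection and no culture. The other 4 libraries, used only to place levels, were the neural plate and the non-placodal, non-neural head ectoderm at HH6/7 and the area opaca epiblast of HH4 embryos, taken after 5 hours of contact with a grafted Hensen's node or from the opposite side of the same embryos. Each tissue was sequenced once. Per the labels, both pre-streak libraries came from 1 laboratory and both preplacodal libraries from another, so stage and laboratory cannot be told apart in any difference between the sides. The laboratory of the pre-streak libraries also made the neural plate and area opaca libraries, and that of the preplacodal libraries made the non-neural ectoderm library.

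The preplacodal region is a horseshoe of ectoderm around the anterior neural plate. Its cells later form the cranial placodes, which give rise to the lens, the nasal and otic epithelium, the anterior pituitary and many neurons of the cranial ganglia. Homeobox factors such as SIX4 and their EYA partners mark it, and FGF activity together with inhibition of BMP and WNT is known to promote it. The pre-streak epiblast is a single layer of cells that has not yet been divided into germ layers. It expresses pluripotency factors such as NANOG and the chick Oct4 relative POUV, and Nodal signalling within it precedes the streak.

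A gene was called higher where both preplacodal libraries were at least 2 times above both pre-streak libraries in CPM, the count scaled to a library total of 1e+06, and reached 5 CPM. It was called lower under the mirror rule. Of 9723 genes that reached 5 CPM in both libraries of a side, 1090 were higher (11.2%) and 158 were lower (1.63%). The remaining 8475 met neither condition. With factors that even out composition the split was less one-sided, at 789 higher and 232 lower with TMM factors and 731 and 268 with DESeq2 size factors. The deposited FPKM values, with a pseudocount of 1, gave 401 higher and 246 lower. There the minimum applied to FPKM and 8425 genes were tested, so a gene can miss the rule in FPKM by its level as well as by its ratio. The notes on FPKM below do not tell these apart. The median log2 ratio of preplacodal to pre-streak means over the tested genes was 0.22 on total counts, 0.02 with TMM factors and -0.02 with DESeq2 size factors. Log2 ratios below are thus to be read against 0.22 and not against 0, and this median depended on level. It was 0.63 for tested genes with a mean of 5 to 10 CPM on their higher side and 0.43 from 10 to 30. From 30 to 100 it was 0.21, from 100 to 300 it was 0.0046, and from 300 CPM it was -0.22. Of the 1090 higher genes, 731 were also higher with both TMM and DESeq2 factors, and 368 of these were higher in FPKM as well. All 158 lower genes kept their call with both factors, and 123 of them kept it in FPKM. An FPKM value was used for 1068 of the 1090 higher and 151 of the 158 lower genes. Leaving out the anterior pre-streak library gave 1789 higher and 406 lower genes, and leaving out the central one gave 306 lower genes. No test was made, since each tissue has 1 library and the libraries of a side are different regions and not replicates. Intervals given in brackets are exact 95% intervals of the ratio of the nearest pair of libraries, the smallest of the 4 ratios between the sides, and cover counting error alone.

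**Figure D1:**
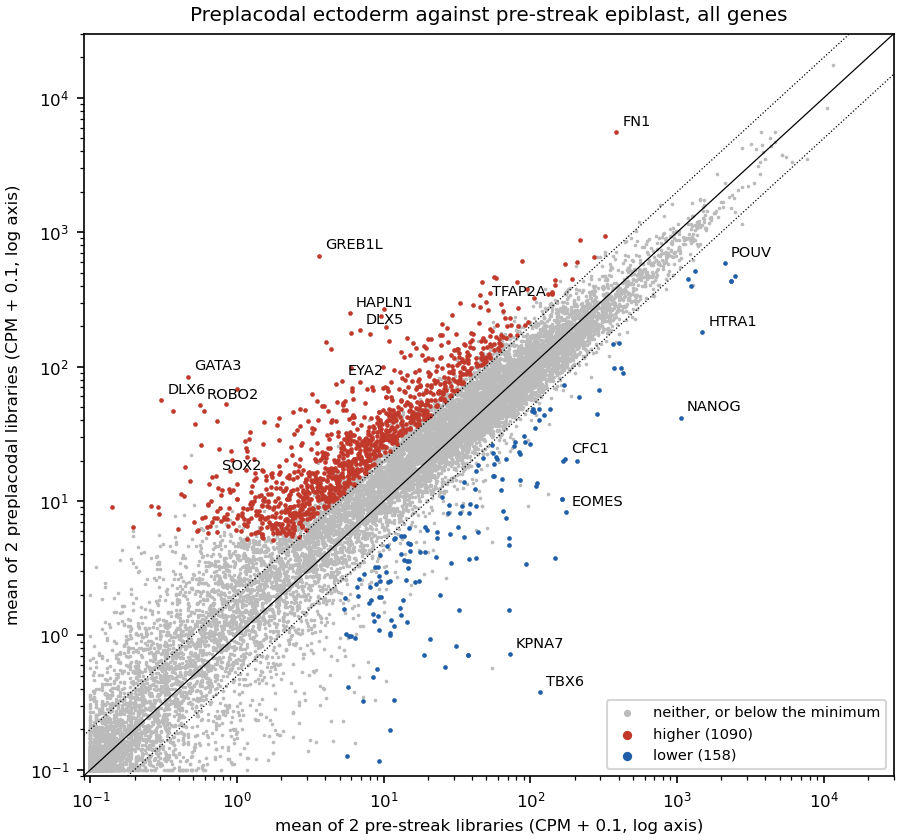
Each point is a gene, with the mean of the 2 pre-streak libraries on the horizontal and the mean of the 2 preplacodal libraries on the vertical axis, both in CPM plus 0.1 on log axes. Red points are the 1090 higher genes and blue points the 158 lower genes; the solid line marks equal levels and the dotted lines a ratio of 2.

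Library totals were 99718534 and 100147917 counts for the anterior and central pre-streak epiblast and 96256421 and 138666339 for the anterior and posterior preplacodal region. Genes at 5 CPM or more numbered 8958 and 8877 in the pre-streak and 9737 and 9676 in the preplacodal libraries. Ribosomal protein genes took 8.91% and 9.43% of counts in the pre-streak libraries and 6.84% in each preplacodal one. Mitochondrial genes took 4.07% and 3.36% against 5.31% and 4.97%. These shares moved with the side of the comparison, and their part in the calls was not tested.

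The tissue labels were checked against marker genes. The summed level of 9 preplacodal markers was 111 and 172 CPM in the anterior and central pre-streak libraries. In the anterior and posterior preplacodal libraries it was 892 and 758 CPM, and 8 of the 9 were called higher. The same 9 markers summed to 413 CPM in the non-neural ectoderm and 105 CPM in the neural plate. The 7 markers of early epiblast summed to 5517 and 5898 CPM in the pre-streak and 1836 and 2350 CPM in the preplacodal libraries; 3 of the 7 were called lower. The 6 neural plate markers, PAX-6 and SOX2 among them, summed to 54.6 and 25.4 CPM in the preplacodal libraries and 74.9 CPM in the neural plate. In the preplacodal libraries 8 head and paraxial mesoderm markers summed to 21.2 and 20.7 CPM, and 6 streak and axial mesoderm markers to 16.3 and 20.1 CPM. The entries of SOX1, SIX3, FOXC1 and MIXL1 hold 0 counts in all 8 libraries, the neural plate included, so they add nothing to this check. In the pre-streak libraries the mesoderm list reached 178 and 67.3 CPM, nearly all of it TBX6, and the streak list 262 and 224 CPM, mostly EOMES. Neural crest markers summed to between 46.1 and 93.5 CPM across the 4 libraries, endoderm and yolk markers to between 22.2 and 99.3 CPM, blood and endothelium markers to between 2.86 and 5.51 CPM and germ cell markers to between 5.28 and 35.9 CPM. What these tissues add to the calls was not tested.

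Genes such as SIX4, EYA1 and EYA2, which mark the preplacodal state, were the starting point. Values below are given in CPM in the order anterior and central pre-streak epiblast, then anterior and posterior preplacodal region. Of 8 measured members of their network, 5 were higher and 0 lower, with a median log2 ratio of 2.09 against 0.26 over all 11657 measured genes, of which 9.35% were higher and 1.36% lower. EYA2, a coactivator of homeobox factors, stood at 3.41 and 6.75 against 78.4 in each preplacodal library. It was low in both pre-streak libraries, and the nearest pair differed 11.6-fold [10.7, 12.6]. EYA1 was high at the anterior end, at 1.02 and 0.629 against 31.5 and 8.72 (8.52-fold [6.96, 10.5]), and missed the rule in FPKM. SIX4 was already present before the streak, at 13.3 in each pre-streak library against 37.5 and 35.9, a nearest ratio of 2.69. In the neural plate and the non-neural ectoderm SIX4 stood at 20.5 and 19.2, EYA1 at 1.77 and 12.8, and EYA2 at 4.10 and 13.6. EYA1 was thus higher in the non-neural ectoderm than in the posterior preplacodal library. DACH1, a partner of the EYA proteins, differed 4.77-fold. HOMER2, a scaffold protein listed as a preplacodal marker, ran the other way without meeting the rule, at 85.3 and 43.7 against 35.1 and 33.8. In bulk tissue a lower level can mean fewer cells that express a gene or less RNA of it per cell, and the files do not separate these.

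Genes of the anterior placodes, which form lens, nasal epithelium and pituitary, included some of the widest separations. Of 11 measured members, 6 were higher and 1 was lower, with a median log2 ratio of 4.43. HESX1, a homeobox repressor of forebrain and pituitary, was at 2.08 and 1.56 against 59.6 and 22.9, 11.0-fold [9.57, 12.7]. PAX-6, the eye and nasal placode regulator, was at 0.562 and 0.749 against 37.9 and 10.3, 13.7-fold [10.9, 17.5], but missed the rule in FPKM. SST, which encodes the peptide somatostatin, was at 1.75 and 0.379 against 36.0 and 6.22. For these 3 genes the anterior preplacodal library was the highest of the 4 and the posterior one came next. That both lay above the epiblast follows from the rule. OTX1, a head homeobox gene, differed 15.4-fold, whereas its relative OTX2 was at 112 and 18.2 against 283 and 222 and missed the rule at a nearest ratio of 1.98. DMBX1, a homeobox gene of the brain in mouse, was 0.943 and 0.0499 against 46.7 and 46.4 (49.2-fold [40.1, 60.9]). In the neural plate HESX1 stood at 64.0, OTX1 at 12.7, OTX2 at 281 and DMBX1 at 37.5, near or above their preplacodal levels. PAX-6 (6.45) and the list member DLX5 (13.6) were lower there, and SST (14.5) lay between its preplacodal levels. The somatostatin receptor SS5R, at 0.251 and 0.689 against 7.55 and 4.87, and the nociceptin precursor PNOC, at 0 and 0.02 against 4.43 and 1.80, did not reach 5 CPM in both preplacodal libraries and were not called.

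Posterior placode and otic genes were higher in 6 of 11 measured members, 0 were lower, and the median log2 ratio was 2.99. FOXI2, a forkhead gene of the posterior preplacodal region, stood at 2.0 and 6.57 against 68.9 and 200, 10.5-fold [9.68, 11.4]. The Iroquois homeobox genes IRX1 and IRX2 were nearly absent from the epiblast. IRX1 was at 0.552 and 0.699 against 42.0 and 36.9, and IRX2 at 0.602 and 0.230 against 23.4 and 51.6, with nearest ratios of 52.8 [41.7, 67.8] and 39.0 [30.2, 51.2]. LMX1A, a LIM homeobox gene of the otic vesicle, differed 9.49-fold, a call not met in FPKM, and ZNF385C 13.7-fold. LMX1B met the rule at 2.38, at 3.15 and 5.01 against 11.9 and 37.8, with the posterior preplacodal library above the anterior one. It missed the rule with DESeq2 factors and in FPKM. In the neural plate LMX1B stood at 51.7 and IRX2 at 48.5. FOXI2 (42.2), ZNF385C (7.11), IRX1 (6.83) and LMX1A (1.47) were below both preplacodal libraries there. In the non-neural ectoderm FOXI2 stood at 72.5, above its anterior preplacodal level. LMX1B (7.51), IRX1 (8.05), IRX2 (4.97), ZNF385C (5.01) and LMX1A (1.74) were below both preplacodal libraries in that tissue.

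Genes of the neural plate border and of early ectodermal competence were split. Of 19 measured, 7 were higher and 0 lower, at a median log2 ratio of 2.59. GATA3, a zinc finger factor of non-neural and later otic ectoderm, had the widest nearest-pair ratio of the 1090 higher genes. It was at 0.361 and 0.369 against 104 and 63.7, 172-fold [125, 245], and stood at 56.3 in the non-neural ectoderm and 1.38 in the neural plate. DLX6 was at 0.10 and 0.31 against 60.6 and 52.3, 169-fold [119, 249]. Its neighbour DLX5 was at 3.08 and 10.4 against 233 and 141, 13.5-fold [12.7, 14.4], and DLX3 differed 10.6-fold. These homeobox genes mark the border and the ectoderm outside the neural plate, and in all 3 the pre-streak libraries were low. TFAP2A, an activator of border and epidermal genes, was low only in the anterior epiblast, at 3.49 and 95.9 against 277 and 323, so its nearest ratio was 2.89 [2.83, 2.96]. ZIC2, a zinc finger factor of neural plate and border, showed the opposite epiblast pattern, at 2.83 and 0.020 against 22.6 and 54.3. BLIMP-1 (PRDM1) was at 48.9 and 13.4 against 176 in each preplacodal library, 3.59-fold.

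Several genes known from the same border territory did not meet the rule. GATA2 was at 24.1 and 134 against 272 and 196. MSX1, a target of BMP signalling, was at 7.93 and 137 against 67.5 and 84.0, and its sides overlapped. TFAP2C was at 336 and 207 against 203 and 176. BMP4 was at 6.16 and 41.6 against 71.9 and 92.1, with a nearest ratio of 1.73. In GATA2, MSX1 and BMP4 the anterior epiblast was the lowest of the 4 libraries and the central epiblast lay nearer to the preplacodal level. Surface ectoderm and epidermal genes gave 1 higher member of 17, the keratin KRT14 (0.682 and 2.11 against 23.8 and 9.28, 4.41-fold, not called in FPKM), with a median log2 ratio of 0.29 that is close to 0.26 for all measured genes. GRHL3, an epidermal regulator, was at 0.0702 and 30.1 against 12.8 and 32.2 and overlapped.

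Genes of the neural plate were also higher in the preplacodal libraries: 6 of 11 measured, 0 lower, median log2 ratio 3.95. Some genes belong to several lists, so the list counts are not separate. PAX-6 and ZIC2, counted here, were also counted in the anterior placode and border lists, and DLX5 in both of those. PAX-6 stood at 6.45 in the neural plate, below both preplacodal libraries. SOX2, the neural and placodal progenitor factor, was at 1.09 and 0.140 against 15.5 and 14.9, 13.7-fold [11.3, 16.7], and reached 60.0 in the neural plate. LHX5, a LIM homeobox gene of the forebrain, was at 10.9 and 0.939 against 196 and 161, 14.8-fold, with 194 in the neural plate and 7.92 in the non-neural ectoderm. The adhesion molecules NCAM1 and CDH2 differed 4.77-fold and 2.62-fold. Neural crest genes counted 3 higher and 2 lower of 13. CDH7 and SOX9 were higher, at 14.7-fold and 4.26-fold (SOX9 not in FPKM), while the transcription factors ETS1 (73.8 and 81.8 against 28.2 and 22.6) and SNAI1 (7.00 and 8.75 against 1.69 and 1.59) were lower. Of 10 head and paraxial mesoderm genes, FOXC2 (0.221 and 0.0999 against 11.8 and 6.27) and NKX2-5 (0.0401 and 0.0399 against 12.5 and 5.24) were higher; NKX2-5 rested on 4 counts in each pre-streak library, for a nearest ratio of 131 [50.8, 481], and fell below the minimum with TMM or DESeq2 factors. Their levels stand beside the 8 mesoderm markers, FOXC2 among them, that summed to 21.2 and 20.7 CPM in the same libraries, and which cells carried them was not tested.

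**Figure D2:**
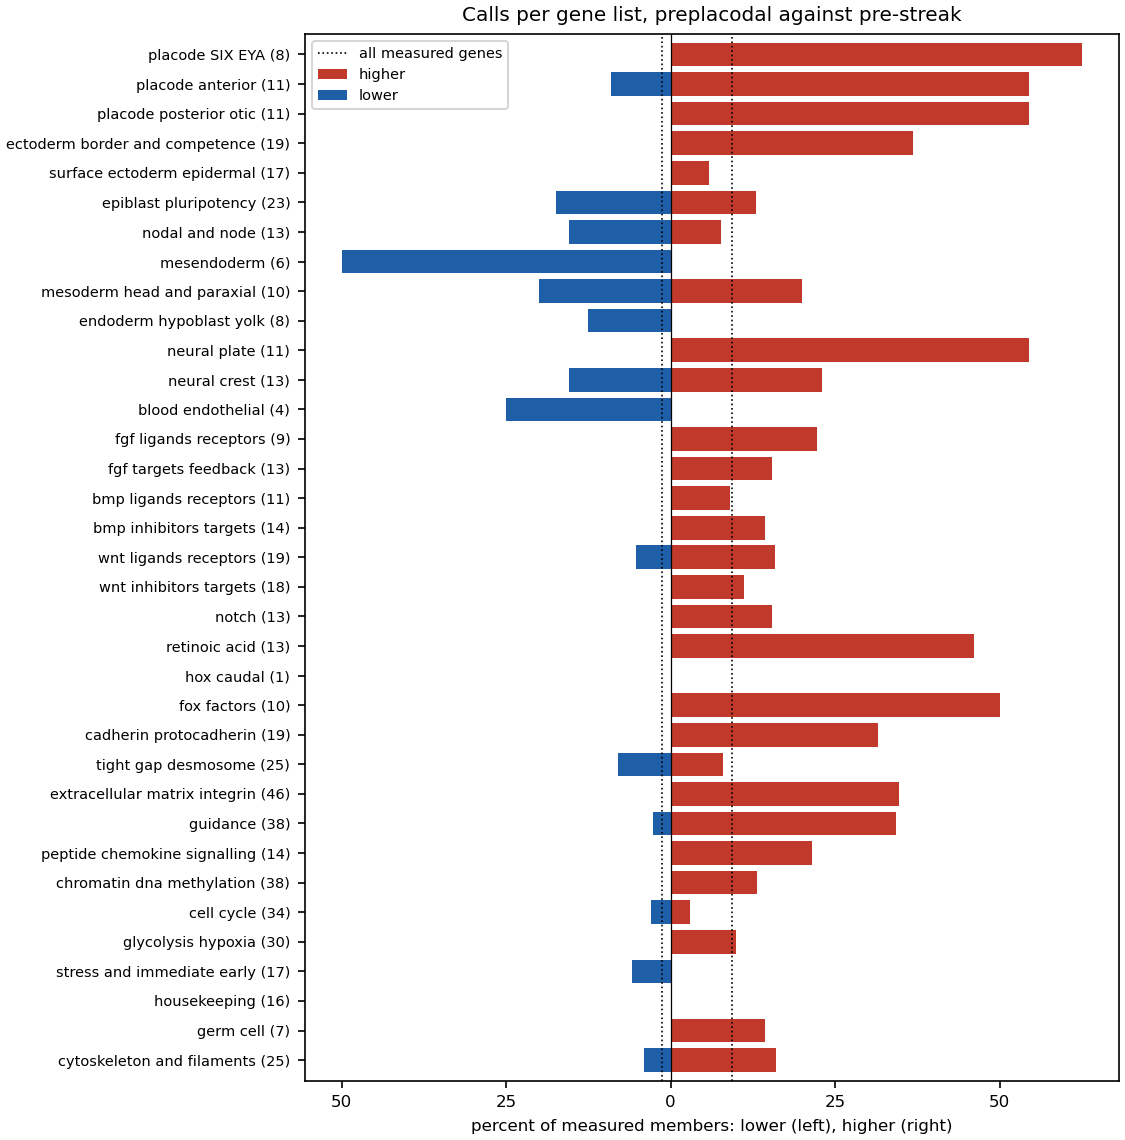
Bars give, for 35 gene lists, the percentage of measured members that were higher (right) and lower (left) in the preplacodal libraries, with the number measured in brackets. Dotted lines mark 9.35% higher and 1.36% lower over all measured genes; the placode, border, neural plate, retinoic acid and forkhead lists extend farthest to the right and the mesendoderm list, with 3 of 6, farthest to the left.

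Among signalling genes the retinoic acid list held the largest share of higher members, 6 of 13, with 0 lower and a median log2 ratio of 0.86. Retinoic acid is made from vitamin A, and CYP26 enzymes break it down. CYP26A1 was at 18.5 and 0.599 against 234 and 245, and CYP26C1 at 15.4 and 0.479 against 170 and 180, 12.7-fold [12.1, 13.3] and 11.0-fold [10.5, 11.6]. Both were high in the neural plate (287 and 258) and low in the non-neural ectoderm (4.19 and 2.38). The retinol transporter STRA6, at 9.36 and 2.44 against 123 and 71.4, differed 7.63-fold. The receptors RARB and RXRG differed 12.5-fold and 3.27-fold, and RXRG missed the rule in FPKM. RARB was at 2.30 and 2.64 against 34.3 and 32.9, and unlike CYP26A1 and CYP26C1 it was high in the non-neural ectoderm, at 72.9. CRABP2, a retinoic acid carrier, met the rule at 2.26 but not with TMM or DESeq2 factors. CYP26B1 ran the other way, at 0.953 and 9.38 against 0.0831 and 0.180. It did not count as measured, because the anterior epiblast was under 1 CPM. The other 7 measured members were not called, among them ALDH1A2, which overlapped at 3.46 and 13.7 against 2.45 and 3.74.

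Of 9 measured FGF ligands and receptors, the receptors FGFR2 and FGFR3 were higher (22.2%) and 0 were lower. FGFR2 was at 85.7 and 75 against 414 and 439, 4.83-fold [4.72, 4.95]. FGFR3 was at 11.6 and 105 against 442 and 465, 4.22-fold [4.13, 4.31], and FGFR1 at 304 and 102 against 567 and 555, which missed the rule at 1.83. FGFR4 ran the other way without meeting the rule, at 201 and 261 against 167 and 118. The ligand FGF8 was at 9.40 and 1.18 against 0.675 and 0.685. Of 13 FGF targets and feedback genes 2 were higher, 15.4% against 9.35% of all measured genes. They were IL17RD (4.41-fold) and FLRT3 (2.29-fold, lost with TMM or DESeq2 factors). With TMM factors 1 of the 13 was higher. The FGF-responsive genes ETV4, at 53.1 and 9.55 against 9.59 and 14.8, and MKP3, the phosphatase that limits ERK, at 67.6 and 7.15 against 11.3 and 24.4, overlapped between the sides, with the anterior epiblast highest.

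In the BMP and WNT lists 9.09% to 15.8% of the measured members were higher, against 9.35% of all measured genes. Of 11 BMP ligands and receptors 1 was higher, the receptor BMPR2 at 10.5 and 9.85 against 35.6 and 41.8 (3.38-fold). Of 14 BMP inhibitors and targets 2 were higher: FST, which binds activin and BMPs, at 4.39 and 0.280 against 14.1 and 48.9, and the signal transducer SMAD9, 3.31-fold but not in FPKM. Of 19 WNT ligands and receptors, the coreceptor LRP6 (7.18 and 6.54 against 39.1 and 34.6, 4.82-fold) and the receptors FZD8 (3.27-fold) and FZD1 (2.14-fold, lost with TMM or DESeq2 factors) were higher. RSPO3, a secreted enhancer of WNT signalling, was lower, at 325 and 246 against 51.3 and 37.6 (4.80-fold [4.65, 4.95]). Among 18 WNT inhibitors and targets, the secreted inhibitors FRZB and SFRP2 were higher, at 3.20-fold and 2.77-fold, and 0 were lower. In the Notch list of 13, the ligands JAG1 and JAG2 were the 2 higher members (15.4%), at 5.22-fold and 3.82-fold. JAG1 missed the rule in FPKM.

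Of 46 matrix and integrin genes 16 were higher and 0 lower, with a median log2 ratio of 1.29. With TMM factors 11 were higher and 1 lower, and in FPKM 6 of 45 were higher. FN1, fibronectin, was at 461 and 304 against 6375 and 4713, 10.2-fold [10.1, 10.3], and reached 5699 in the non-neural ectoderm and 1125 in the neural plate. HAPLN1, the link protein that fixes proteoglycans to hyaluronan, was at 3.54 and 8.01 against 223 and 277, 27.8-fold [25.9, 29.9], above the neural plate (36.4) and the non-neural ectoderm (46.3). Both genes were far above the epiblast in each preplacodal library. The collagens COL14A1 and COL9A1 differed 12.9-fold and 7.55-fold, and COL14A1 missed the rule in FPKM. The basement membrane genes NID2, COL4A5, LAMA5 and COL4A6 met the rule on total counts, at nearest ratios of 2.03, 2.07, 2.02 and 2.01. They and LAMB2 lost the call with TMM or DESeq2 factors, whereas NID1 kept it with both and in FPKM.

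All 6 called cadherins were higher, of 19 cadherin and protocadherin genes measured. CDH8 was at 0.221 and 0.170 against 7.43 and 8.34, CDH4 at 0.732 and 0.349 against 15 and 11.7, and CDH11 at 13.4 and 6.31 against 86.0 and 113. Their nearest ratios were 33.7, 15.9 and 6.43, and CDH7, CDH2 and CDH13 completed the group; CDH8 and CDH4 missed the rule in FPKM. CDH1, the epithelial cadherin, was at 84.2 and 82.7 against 158 and 244 and missed the rule at 1.87. Of 25 tight junction, gap junction and desmosome genes, CLDN3 (2.85-fold) and CLDN12 (2.12-fold, lost with TMM or DESeq2 factors) were higher. The claudin CLDN16 (3.65-fold, not called in FPKM) and the connexin GJB6 (12.9 and 58.0 against 5.47 and 5.07) were lower. That is 8% higher and 8% lower, against 9.35% and 1.36% of all measured genes.

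Axon guidance receptors and ligands, which also act in epithelia and migrating cells, were higher in 13 of 38 measured members and lower in 1, with a median log2 ratio of 1.22. With TMM factors 10 were higher and 2 lower, and in FPKM 6 of 37 were higher and 1 lower. ROBO2, a receptor for SLIT proteins, was at 0.592 and 0.330 against 54.8 and 48.8, 82.5-fold [63.8, 108]. The ephrin receptors EPHA4, at 11.9 and 18.2 against 106 and 140, and EPHA7 differed 5.83-fold and 7.12-fold, and the semaphorin receptor NRP1 8.63-fold; EPHA7 and NRP1 missed the rule in FPKM. SEMA6D, RGMA and ROBO1 were close to a ratio of 2, at 2.09, 2.14 and 2.14, and lost the call with TMM or DESeq2 factors. SEMA6A was the lower member, at 17.8 and 21.3 against 5.08 and 6.84. Cytoskeletal genes of neurons went both ways. The microtubule proteins MAP2 (20.3 and 17.2 against 140 and 143, 6.88-fold), DCX (7.84-fold) and MAP1B (4.22-fold) were higher, whereas the neurofilament gene NEFM was lower, at 31.6 and 24.8 against 5.24 and 5.91.

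The 15 genes with the widest separation upward, ranked by the lower bound of the interval among genes at 10 CPM or more, added members outside those lists. GREB1L, linked to kidney and inner ear development in human, was at 5.35 and 1.68 against 745 and 596, 112-fold [102, 122]. It was also high in the neural plate (401), the non-neural ectoderm (715) and the ungrafted area opaca (107). VWDE, at 0.140 and 0.389 against 39.1 and 54.6, was 100-fold higher [73.4, 142], and NEDD9, a scaffold at focal adhesions, at 0.672 and 0.819 against 56.7 and 48.3, 59.0-fold [47.5, 74.3]. The ranking selects genes in which the lower of the 2 preplacodal libraries lies far above the higher of the 2 epiblast libraries, as in these. CHL1, an adhesion molecule of the L1 family, differed 33.7-fold, GRPR, the gastrin-releasing peptide receptor, 34.3-fold, and PDE9A, a cyclic GMP phosphodiesterase, 28.8-fold. GRIA3, a glutamate receptor subunit, differed 25.4-fold but missed the rule in FPKM. ST8SIA2, which adds polysialic acid to NCAM1, was at 7.03 and 0.859 against 163 and 140, and stood at 367 in the neural plate and 7.00 in the non-neural ectoderm. The full group was GATA3, DLX6, GREB1L, VWDE, ROBO2, NEDD9, IRX1, DMBX1, IRX2, CHL1, HAPLN1, GRPR, PDE9A, GRIA3 and ST8SIA2.

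**Figure D3:**
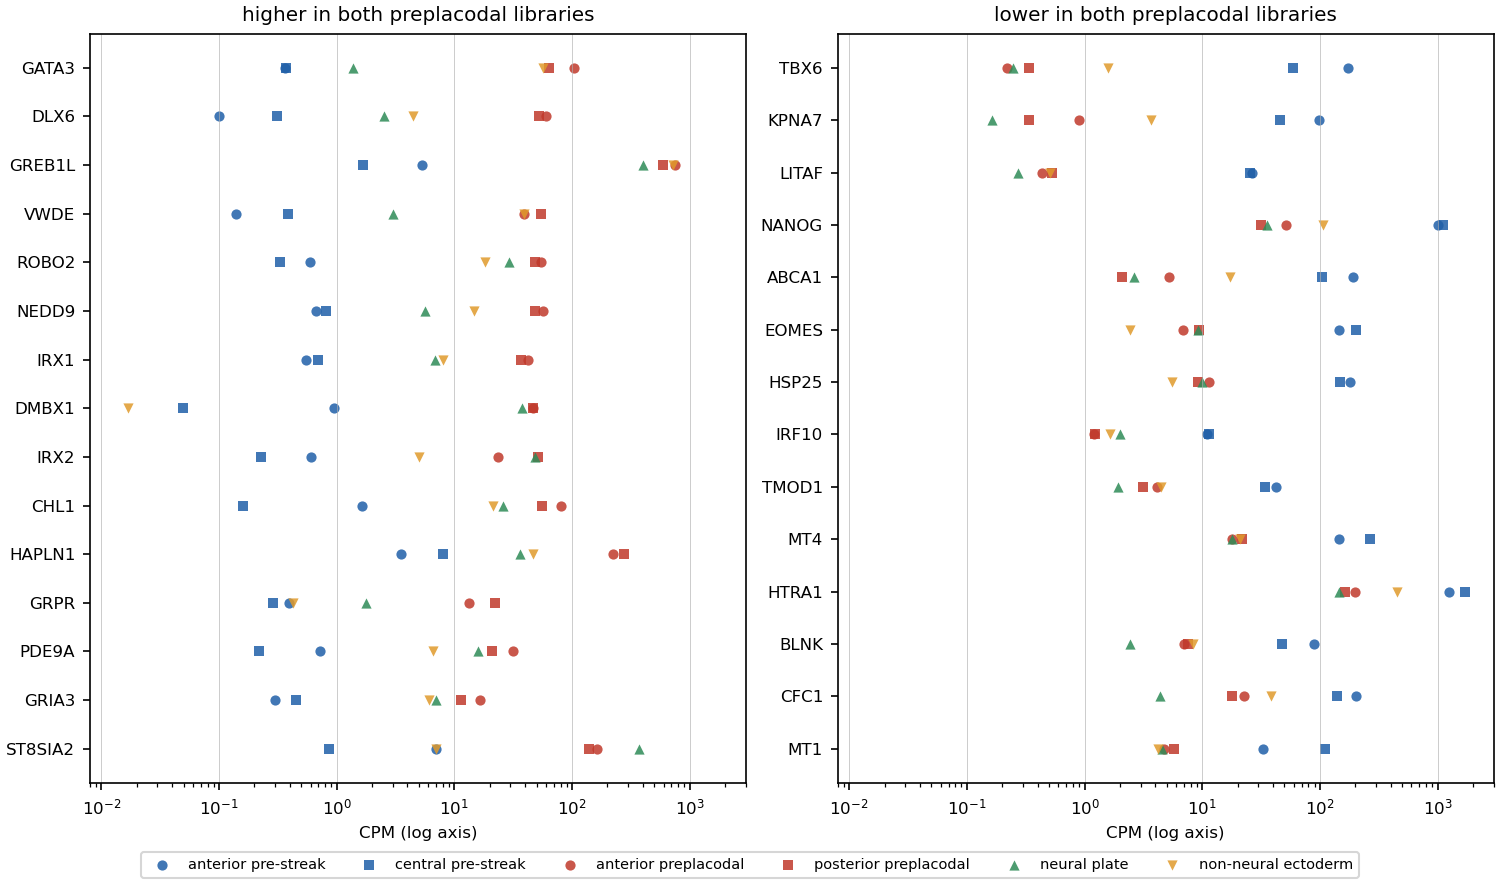
Levels in CPM (log axis) of the 15 named higher genes (left) and 14 named lower genes (right) in 6 libraries, 1 symbol per library. In every row the red preplacodal points and the blue pre-streak points are apart, which follows from how the genes were chosen. The green neural plate and orange non-neural ectoderm points are spread widely on the left and lie mostly beside the preplacodal points on the right.

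The lower genes were fewer, and T-box regulators of the early embryo were among them. TBX6, a T-box gene of presomitic mesoderm, was at 174 and 59.2 against 0.218 and 0.339, 175-fold lower [131, 238]. EOMES, a T-box gene needed for mesendoderm in mouse, was at 146 and 202 against 6.92 and 9.35, 15.6-fold lower [14.8, 16.5]. T (brachyury), the streak marker, was at 28.2 and 17.1 against 2.81 and 4.72, 3.63-fold lower. These were the 3 lower members among 6 mesendoderm genes measured, and 0 were higher. In the Nodal and node list of 13, CFC1, an EGF-CFC coreceptor of Nodal, was at 204 and 139 against 22.8 and 17.7 (6.10-fold lower [5.84, 6.39]; a near-identical entry, CFC1B, has the same counts, so their reads cannot be separated). GNOT1 (Not1), a homeobox gene of node and notochord, was at 122 and 20.9 against 5.85 and 3.40. The receptor ACVR2B was the 1 higher member, at 13.6 and 9.59 against 50.3 and 40.6. NODAL itself was at 7.86 and 4.69 against 0.0312 and 0.0865 and was not called, because the central epiblast was under 5 CPM. ADMP (107 and 1.73 against 0.436 and 0.512) and the BMP antagonist CHRD (81.6 and 3.52 against 6.22 and 5.83) were high in the anterior epiblast alone.

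Pluripotency genes did not move as a block. Of 23 measured, 4 were lower and 3 higher, with a median log2 ratio of -0.48. With TMM factors 5 were lower and 2 higher. NANOG was at 1001 and 1114 against 51.5 and 31.9, 19.4-fold lower [18.9, 20], and stood at 35.3 in the neural plate, 106 in the non-neural ectoderm and 1044 in the ungrafted area opaca. POUV was at 2267 and 1966 against 513 and 668, 2.94-fold lower [2.92, 2.97]. PRDM14, a germline and pluripotency regulator in mouse, was at 91.7 and 33.9 against 10.9 and 13.1. NANOG thus kept 3.94% of its mean epiblast level in the preplacodal libraries and POUV 27.9%. ENS-1, an endogenous retroviral gene active in chick stem cells, was at 3231 and 1448 against 536 and 333; an unnamed entry has the same counts. LIN28A, an RNA-binding protein that blocks let-7 maturation, was higher, at 100 and 90.3 against 387 and 375 (3.73-fold [3.65, 3.81]). NR6A1, a nuclear receptor that in mouse represses Oct4, was higher as well, at 74.0 and 90.2 against 273 and 271. Its sides lay 3.01-fold apart. TET1 was also higher and is described with the TET genes below. The remaining members were not called, among them SALL4 (875 and 693 against 701 and 690) and LIN28B (282 and 198 against 224 and 270). SOX3 (222 and 107 against 99.3 and 97.1) and the DNA methyltransferase DNMT3B (3573 and 1935 against 1139 and 1171) were not called either.

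The TET genes, whose enzymes oxidise methylated cytosine, met the rule on total counts, and of them TET3 alone was also called with TMM and DESeq2 factors and in FPKM. TET3 was at 18.4 and 19.9 against 67.4 and 62.3 (3.13-fold), TET2 at 6.13 and 7.19 against 22.5 and 22.7 (3.14-fold, not called in FPKM), and TET1 at 20.6 and 20.7 against 41.8 and 44.3, where the call at 2.02 was lost with TMM or DESeq2 factors. In all 38 measured chromatin and DNA methylation genes, 5 were higher and 0 lower, and the others higher were CHD2 and HDAC9. The share of higher members was 13.2%, near the 9.35% of all measured genes. In FPKM 2 of the list were higher and 1 was lower.

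The 15 named lower genes also held genes outside these lists. The metallothioneins MT4 (144 and 268 against 17.7 and 21.6, 6.67-fold lower) and MT1 (32.8 and 110 against 4.71 and 5.75, 5.69-fold lower) bind zinc and copper. ABCA1, a cholesterol exporter, was at 190 and 105 against 5.24 and 2.07. HSP25, a small heat shock gene, was at 181 and 149 against 11.4 and 9.27, 13.1-fold lower [12.4, 14.0], with an unnamed entry of the same counts. HTRA1, a secreted serine protease, was at 1261 and 1712 against 199 and 164 (6.35-fold lower [6.25, 6.45]), and was as high in the ungrafted area opaca (1373). KPNA7, an importin of oocytes and early embryos in mammals, was at 99.0 and 45.6 against 0.904 and 0.339, and LITAF at 26.3 and 25.6 against 0.436 and 0.526. In all 7 the lowest epiblast value stood above the highest preplacodal value by at least 5.69-fold, a gap that the ranking selects for. TMOD1, BLNK and IRF10 also belonged to the group. One stress gene of 17 was lower, the haem oxygenase HMOX1 (3.33-fold), and 0 were higher.

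Housekeeping, cell cycle and glycolytic genes were mostly uncalled. Of 16 housekeeping genes 0 were called, at a median log2 ratio of -0.41, and of 34 cell cycle genes CDK6 was lower (2.01-fold) and GADD45A higher (2.15-fold, lost with TMM or DESeq2 factors). Of 30 glycolysis and hypoxia genes, HIF1A (152 and 143 against 399 and 411), the carbonic anhydrase CA9 (84.3 and 19.1 against 269 and 259) and PDK3 (2.01-fold, lost with TMM or DESeq2 factors) were higher. That is 10% of the list, near the 9.35% of all measured genes. The median of the housekeeping list lay below that of all measured genes. Medians also fell with level over the tested genes, to -0.22 from 300 CPM, and what level adds here was not tested.

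Per transcript length, SHISA2 and FN1 were the most abundant of the higher genes that were called in both units. By FPKM, SHISA2, of a family known in Xenopus to hold back FGF and WNT receptors, was at 45.7 and 29.9 in the pre-streak and 903 and 527 in the preplacodal libraries, and FN1 at 63.3 and 43.1 against 714 and 531. Next came LIN28A (318 and 313 FPKM in the preplacodal libraries) and UCH-L1 (299 and 298 FPKM). Of the lower genes, POUV led in the epiblast, at 3295 and 2835 FPKM, followed by FTH, ferritin heavy chain, at 1987 and 2452 FPKM, and NPM3, a nucleophosmin relative, at 1728 and 1776 FPKM. These were picked for their levels after the values were seen. ACTN1 was lower in CPM and higher in FPKM.

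The size of the separation and the level before it varied widely among the members. The median nearest-pair ratio was 2.73 among the higher genes and 3.05 among the lower ones. A ratio of 4 was reached by 260 and 53 genes and a ratio of 10 by 66 and 22. Only 47 of the higher genes were under 1 CPM in both epiblast libraries, while 512 were at 5 CPM or more in both; for the lower genes 18 were under 1 CPM and 74 at 5 CPM or more in both preplacodal libraries. Higher calls were more frequent among weakly expressed genes: 19.7% of tested genes with a mean of 5 to 10 CPM on their higher side were higher, 16.7% from 10 to 30, 9.07% from 30 to 100, 6.29% from 100 to 300 and 3.55% from 300 CPM. Lower calls made up 3.02%, 1.87%, 1.24%, 1.12% and 2.07% in the same ranges. The higher genes took 1.65% and 1.42% of all counts in the epiblast libraries and 6.29% and 6.08% in the preplacodal libraries, and the lower genes 2.65% and 2.25% against 0.600% and 0.520%. Just inside the threshold lay LRRC7 and IQCE (2.0) and, lower, CDK6 and TSEN15 (2.01). Just outside lay RASA3 and PPP1R21 (2.0 after rounding) and DENND5B (1.98).

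The called genes also differed at the median in a ratio related to transcript length. This ratio contains the CPM that the rule used, so it is not fully independent of the calls. The ratio of CPM to FPKM, which grows with the length the authors used, had a median of 2.93 for 1049 higher genes, 1.42 for 148 lower genes and 2.16 for 9431 tested genes with both values. The interquartile ranges, 1.69 to 4.62 and 0.870 to 2.45, overlapped. By this ratio the higher genes were longer and the lower genes shorter at the median, and what length adds to the calls was not tested.

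Gene families, grouped by the letters that open the symbol, differed in the share of higher members, which was 11.2% over all tested genes. The stems below, each with at least 8 tested genes, were picked from the ends of the ranking after the shares were seen. Of 9 tested genes with the stem CDH 6 were higher, of 10 with ADAMTS, secreted metalloproteases that cut matrix, 6 were higher, and of 12 with SEMA 6 were higher and 1 lower. Of 21 with COL 7 were higher. The 6 higher CDH genes are the called cadherins already named above. By contrast 0 of 39 RPL, 0 of 35 MRPL and 0 of 15 COX genes were higher. The share of higher genes also fell with level, to 3.55% of tested genes from 300 CPM. What level adds to these families was not tested. The solute carriers were near the background, with 20 of 158 higher and 3 lower. In the gene order of the GRCg7b annotation, 90 of 4328 adjacent pairs of tested genes were both higher and 0 were both lower. Where the first gene of a pair was higher, the next one was higher in 18.8% of 478 pairs, against 11.2% of all tested genes. Such pairs included DLX6 and DLX5, IRX2 and IRX1, CYP26A1 and CYP26C1, CDH11 and CDH8, COL4A5 and COL4A6, EDIL3 and HAPLN1, and RXRG and LMX1A; these were picked after the pairs were seen. Overlapping genes on opposite strands were not separated, as the strand setting of the counting is not given.

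Fewer tested genes differed 2 times between the 2 preplacodal libraries than between the 2 pre-streak libraries. Being tested or called higher needs 5 CPM in both libraries of a side, so genes confined to 1 preplacodal region can drop out. PAX-7, at 4.38 and 39.4 in the anterior and posterior preplacodal libraries, did so. Each region is 1 library, and tissue and laboratory cannot be told apart here. Among the 1090 higher genes the anterior preplacodal library was at least 2 times the posterior one in 23 (2.11%). The posterior was at least 2 times the anterior in 11 (1.01%). Of all 9723 tested genes these were 46 (0.473%) and 42 (0.432%). Named after their values were seen, the widest anterior ones were SST (5.79-fold), PAX-6 (3.70), EYA1 (3.61), PADI1 (3.18) and HESX1 (2.61). The widest posterior ones with a symbol were FST (3.47), LMX1B (3.17), FOXI2 (2.90) and BRINP2 (2.71). PAX-6, HESX1 and SST belong to the anterior placode list, and FOXI2 and LMX1B to the posterior one. The other higher members did not all sort by region. Of the posterior list, LMX1A (11.7 CPM anteriorly, 7.05 posteriorly) and IRX1 (42.0, 36.9) were more abundant anteriorly. IRX2 (23.4, 51.6) and ZNF385C (23.1, 26.0) were more abundant posteriorly. Of the anterior list, DLX5 and OTX1 were more abundant anteriorly and DMBX1 was nearly level (46.7, 46.4). Between the epiblast regions, 120 higher genes (11.0%) were at least 2 times more abundant anteriorly and 32 (2.94%) centrally, compared with 5.27% and 3.51% of all tested genes. The anterior group included the secreted kinase PKDCC (65.2 and 1.15 in the anterior and central epiblast, against 279 and 314), CYP26C1, CYP26A1, CNTN2 and ASTN1. Their order across the 4 libraries follows from how they were chosen. Among the lower genes the epiblast regions were balanced, with 15 genes at least 2 times higher on each side. GNOT1 and TBX6 were anterior (5.86-fold and 2.93-fold), and the retinol carrier RBP4, the syndecan SDC4 and the protease CTSC were central (10.2-fold, 4.29-fold and 3.56-fold).

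The called genes were then followed into the other 4 libraries as levels. The median CPM of the 1090 higher genes was 6.37 and 5.16 in the epiblast and 25.3 and 24.4 in the preplacodal libraries. It was 19.1 in the neural plate, from the laboratory of the epiblast libraries, and 20.5 in the non-neural ectoderm, from the laboratory of the preplacodal ones. The area opaca gave 10.7 with and 10.2 without the graft. For the 158 lower genes the medians were 30 and 25.2 in the epiblast, 5.02 and 4.65 in the preplacodal libraries, 4.54 in the neural plate, 7.86 in the non-neural ectoderm, and 15.5 and 8.13 in the grafted and ungrafted area opaca. The genes were chosen on the epiblast and preplacodal libraries, so these medians describe levels and do not separate stage from laboratory. Single genes departed from this: DLX6 (2.52 in the neural plate, 4.43 in the non-neural ectoderm) and EYA2 (4.10 and 13.6) were far below their preplacodal levels in both tissues.

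**Figure D4:**
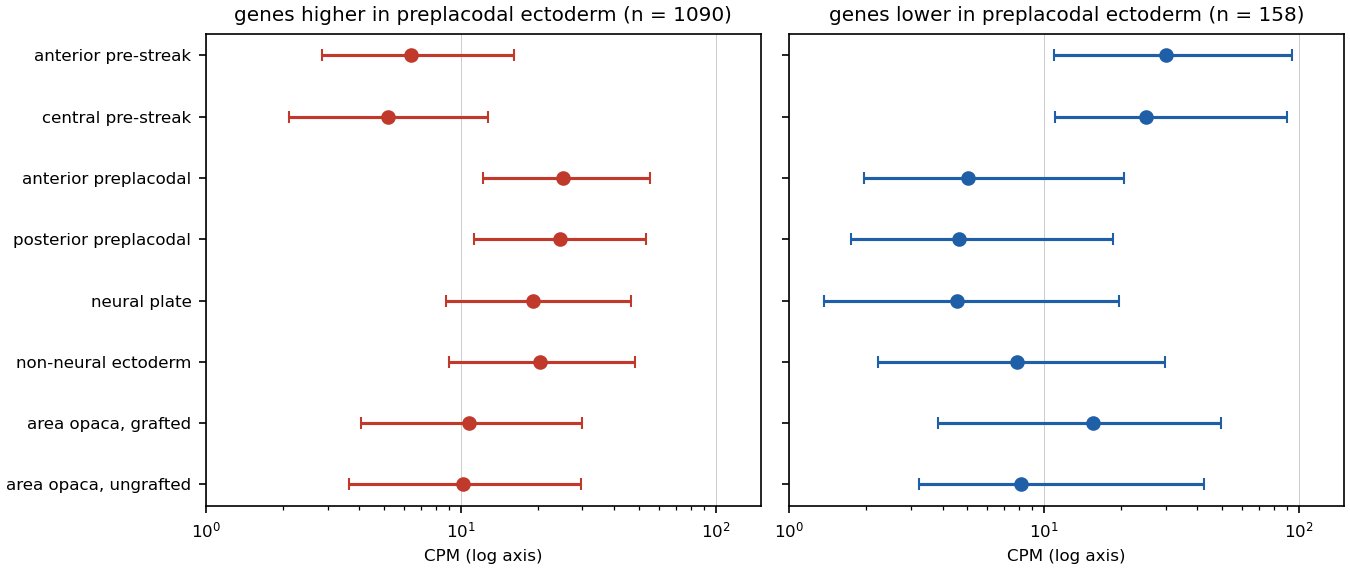
Points are the median CPM (log axis) of the 1090 higher genes (left) and the 158 lower genes (right) in each of the 8 libraries, and bars run from the first to the third quartile over genes. On the left the medians run from 5.16 in the central pre-streak to 25.3 in the anterior preplacodal library; on the right from 4.54 in the neural plate to 30 in the anterior pre-streak library.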

How the data were processed

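Messenger RNA of 8 dissected chick tissues was sequenced, 1 library each. The deposited table holds raw counts per gene made by the authors (17329 genes). A second deposited table holds FPKM, fragments per kilobase scaled to library size, computed by the authors (17327 genes); it served as an alternative unit for genes with Ensembl identifiers only, since its RefSeq rows do not follow the counts. The submitters' processing notes name TopHat2 and galGal4; for the counter, the annotation and the strand setting, the tool is not given in the sources used here. Each column was matched to a sample by tissue code (that of the non-neural ectoderm counts carries a p the label lacks, and no other sample has the code), and 0 columns were left unused.

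Counts were divided by column totals to give CPM. A list member is measured where both libraries of a side reach 1 CPM. Log2 ratios compare side means with 0.1 CPM added. Intervals of ratios are exact Clopper-Pearson at 95%, for counting error only; 3 counts correspond to between 0.0216 and 0.0312 CPM in the 4 libraries. No test was made, because the libraries of a side are different regions; edgeR and DESeq2 gave scaling factors only (edgeR 4.0.16, DESeq2 1.42.0, R 4.3.3). Other steps used Python 3.11.15, pandas 2.3.3, numpy 2.4.6, scipy 1.17.1 and matplotlib 3.10.9. The calling was tested on simulated counts with planted ratios and counting error only, without differences between regions, embryos or laboratories. That checks the code and not the calls made here.

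The comparison, its members and the 35 lists (697 of 790 symbols matched, 17 through another name) were chosen with earlier results of these data known. The rule names the 15 genes farthest apart in each direction by the interval bound nearest to 1, with 10 CPM or more and a symbol that is no placeholder, and from each list the 4 highest and 4 lowest called members and those whose role matters. Results for a few genes this rule picks are left out. Placeholder symbols held 108 higher and 41 lower genes. Identifier pairs with the same counts, 11 among the higher and 5 among the lower genes, were kept in the counts. Gene order came from the RefSeq annotation of GRCg7b.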

Additional observations from a re-analysis of the deposited data

How the results depend on the processing

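The number of higher genes went from 1090 to 2022 with a minimum of 3 counts, 584 with 20 CPM, 260 at a ratio of 4, 401 in FPKM with a pseudocount of 1 and 486 with 0.1. The number of lower genes went from 158 to 268 with DESeq2 factors, 245 with a minimum of 1 CPM, 533 with 3 counts, 82 with 20 CPM, 53 at a ratio of 4, and 246 and 273 in FPKM with pseudocounts of 1 and 0.1. Leaving out 1 library gave between 1286 and 1789 higher and between 193 and 406 lower genes, the most without the anterior pre-streak library. Requiring the interval bound to reach 2 left 921 and 141, Ensembl genes alone 1068 and 151, and thinning to the smallest total 1100 and 158. Of the 129 called list members, 19 lost the call with TMM or DESeq2 factors, all of them higher genes, and 40 of the 125 with an FPKM value, 1 of them a lower gene, missed the rule in FPKM. The 30 named genes kept their direction under each alternative that gave them a value (29 in FPKM and among Ensembl genes). They were chosen for the widest separation in these same libraries, so this follows largely from the choice and says little about the other calls. Among them GRPR, GRIA3 and IRF10 missed a minimum of 20 CPM and GRIA3 missed the rule in FPKM. Other causes were not tested. No paired analysis was possible because each tissue has 1 library and the labels carry no replicate numbers. Totals of at least 96256421 counts leave counting error small; the spread between embryos or dissections is unknown.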
